A study of Homo sapiens with 6 samples.

Results

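The distal miR-379/miR-410 cluster is a group of miRNA genes at 14q32, on the long arm of human chromosome 14. Its members were chosen by miRNA name from a list of the cluster's genes, and that list was proposed with the TGF-β against control values of these arrays known. Every difference between the groups is therefore a description, with no test of the cluster as a whole, and supports nothing. The rule found 74 of the 2565 miRNA probes on the array. The cells were Panc-1, a pancreatic ductal adenocarcinoma line, profiled on 6 one-colour miRNA arrays after 72 h, 3 without TGF-β (control) and 3 with 10 ng/mL of it. The labels number the replicates of each group from 1 to 3 and do not say whether they were separate cultures, so p-values measure only the spread between these arrays. The names of the scanner files carry 1 slide code for the control arrays and another for the TGF-β arrays, so slide and treatment cannot be told apart.

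A miRNA is cut from a hairpin precursor, and either strand of the hairpin, called the 5p or the 3p arm, can be loaded into the silencing complex. The seed, a short stretch near the 5′ end of the mature miRNA, largely decides which messenger RNAs it pairs with. The genes of 14q32 lie in the imprinted DLK1-DIO3 region, where the miRNAs and long noncoding RNAs such as MEG3 are expressed from the maternal chromosome and the protein-coding genes DLK1, RTL1 and DIO3 from the paternal one. The distal cluster is found in placental mammals, is known for high expression in brain, placenta and the embryo, and is thought to be transcribed as long precursors that are cut into many hairpins. In epithelial cells and in pancreatic ductal carcinoma, TGF-β is a classic inducer of epithelial-mesenchymal transition.

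In the RefSeq annotation of GRCh38.p14, 73 of the 74 members matched a mature miRNA of 42 hairpin genes, and miR-668-3p was used by its name alone. The genes run from MIR379 to MIR656 on the plus strand of chromosome 14, from 101022066 to 101066801, a span of 44.7 kb. Of the 42 genes, 13 lie inside the interval of the predicted protein-coding gene LOC124903407, 6 lie inside the lncRNA gene MIR381HG (101045157 to 101051795), and 23 lie inside neither. The lncRNA genes MEG8 (100889649 to 100999113) and MEG9 (101069911 to 101072937) flank them. The array files name no genome build. Of the members 4, among them miR-376a-3p, are encoded by more than 1 of these genes.

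The sequences below belong to the 11 members that passed an adjusted p of 0.05 in limma, to other members named by the rule for naming and to members that share a seed with one of these. They are RefSeq sequences, written from 5′ to 3′ with the seed, bases 2 to 8, in capitals. The first 2 pairs each have their own seed. The seed of the second pair is also present in the first pair, shifted by 1 base, so that it starts at base 3 of miR-154-3p and miR-487a-3p.
miR-154-3p: aAUCAUACacgguugaccuauu
miR-487a-3p: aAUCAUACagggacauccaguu
miR-485-3p: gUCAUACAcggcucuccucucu
miR-539-3p: aUCAUACAaggacaauuucuuu

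The miR-376 family is known for editing of adenosine to inosine in its precursors. Here miR-376a-3p and miR-376b-3p share a seed, and miR-376c-3p has another, although it differs from miR-376a-3p by only 2 edits over the whole sequence. An edit is 1 base substituted, inserted or deleted. miR-376a-3p and miR-376b-3p also differ by 2 edits, and miR-376b-3p and miR-376c-3p by 4.
miR-376a-3p: aUCAUAGAggaaaauccacgu
miR-376b-3p: aUCAUAGAggaaaauccauguu
miR-376c-3p: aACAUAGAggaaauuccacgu

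Next come miR-379-3p and miR-411-3p, which share a seed and differ by 2 edits, and miR-495-3p and miR-543, which differ by 4 edits and have different seeds. miR-495-3p shares its seed with miR-5688, encoded outside the cluster.
miR-379-3p: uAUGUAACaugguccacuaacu
miR-411-3p: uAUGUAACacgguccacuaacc
miR-495-3p: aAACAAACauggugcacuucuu
miR-543: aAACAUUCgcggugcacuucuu

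The remaining called members, miR-496 and miR-369-5p, and miR-494-3p each have a seed that no other miRNA matched on the array has. The members with every TGF-β array below every control array were miR-541-3p, which shares its seed with miR-654-5p, and miR-412-3p, which shares its seed with miR-6754-3p, encoded outside the cluster (log2 difference -0.25, groups overlapping).
miR-496: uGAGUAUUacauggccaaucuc
miR-369-5p: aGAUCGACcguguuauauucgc
miR-494-3p: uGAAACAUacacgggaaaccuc
miR-541-3p: uGGUGGGCacagaaucuggacu
miR-654-5p: uGGUGGGCcgcagaacaugugc
miR-412-3p: aCUUCACCugguccacuagccgu

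Over all 73 matched members there were 62 different seeds. Of the members, 21 shared a seed with another member, in 10 groups. Mature lengths were 19 to 25 bases. With a limit of 3 edits, 18 members had another miRNA on the array that close in sequence, and in all 18 cases it was another member. How far the probes tell such close sequences apart was not tested.

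Panc-1 cells were checked against marker miRNAs. The miR-21 arms, abundant in many carcinoma lines, were detected on all 6 arrays, and their summed level was 19328, 20765 and 20772 units in the control group and 20776, 20766 and 20757 after TGF-β. Of the 5 acinar miRNAs (the arms of miR-216a, miR-216b and miR-217), 3 were detected on no array, and 1 passed the filter described next. Of the 9 epithelial arms of miR-200a, miR-200b, miR-200c, miR-141 and miR-429, 5 passed this filter, and only miR-200a-3p and miR-200b-3p were detected on all 6 arrays. Of the 7 blood cell miRNAs (arms of miR-451a, miR-144, miR-142 and miR-223), 4 passed, and only miR-142-3p was detected on all 6 arrays. Of the 4 islet miRNAs, both miR-7-5p and miR-7-1-3p were detected on all 6 arrays, and miR-375 was detected on 1 of them. Of all 2565 miRNAs 62.1% passed this filter, so passing it does not set these markers apart. The 4 blood cell miRNAs that passed were dim, none above 6.56 units on any array. miR-141-5p passed through control array 2 alone, with 14.1 units there and 1.00 on each other array. miR-200a-3p and miR-200b-3p gave 3.57 to 8.15 units. Most acinar miRNAs were not above the background.

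A unit is 1 unit of scanner intensity above the mean of the blank spots after quantile normalization, and a miRNA was detected on an array when its signal exceeded the blank mean by more than 2 SD of the blank spots. Comparisons were made for the miRNAs whose signal, averaged over the 6 arrays, lay at least 2 blank SDs above the blank mean, a filter that does not use the groups. Of the 74 members 68 passed, a share of 91.9%, beside 1592 of all 2565 miRNAs (62.1%). On all 6 arrays 63 members were detected, beside 1282 of all 2565 miRNAs. On single arrays 68, 69 and 69 members were detected in the control group and 67, 70 and 67 after TGF-β. Over all miRNAs these counts were 1531, 1604 and 1592 in the control group and 1563, 1787 and 1586 after TGF-β. The cluster was therefore present at measurable levels in both groups, with little difference between arrays in how many members were seen. The members outside the filter were miR-541-5p, miR-329-5p, miR-668-5p, miR-376a-2-5p, miR-655-5p and miR-544a. miR-655-5p and miR-544a were not above detection on any array, and miR-376a-2-5p was above it on 1 TGF-β array only. Just outside the filter, miR-541-5p averaged 1.98 blank SDs above the blank mean and miR-329-5p 1.67. Just inside it, miR-541-3p averaged 2.18 and miR-410-5p 2.37. No member's spot was marked as faulty by the scanner.

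With TGF-β, most members were slightly higher, with a median log2 difference of 0.27 over the 68 members that passed the filter, 0.26 over all 74 and 0.29 over the 63 detected on all 6 arrays. The median over all 1592 miRNAs that passed the filter was -0.017. The TGF-β mean was above the control mean for 60 of the 68 members (88.2%), beside 47.3% of all miRNAs. Every TGF-β array lay above every control array for 34 of the 68 (50%), beside 7.98% of all miRNAs, and below for 2, miR-412-3p and miR-541-3p, beside 9.30%. In limma over all 1592 miRNAs, with Benjamini-Hochberg adjustment over all of them, 11 members were higher at an adjusted p under 0.05, beside 2.26% of all miRNAs (36 miRNAs), and 0 were lower, beside 1.19% (19 miRNAs). At an unadjusted p under 0.05 limma gave 32 members higher and 0 lower, beside 103 and 92 of all 1592 miRNAs, and the methods' t-test gave 28 higher and 0 lower, beside 98 and 96 of all. That t-test assumes equal variances and was run here on the same log2 values. Student's t-test is among the tests that the paper's methods list in general, and the paper names no test for the arrays. Because the cluster was picked from these same values, these counts describe it and nothing is read from them. An exact permutation test of 3 arrays against 3 cannot go below a 2-sided p of 0.1. In RNA from a whole culture, more cells with a miRNA and more of it per cell cannot be told apart.

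The number of calls depended on the background and on single arrays. With the local background of each spot in place of the blank spots, 0 members were higher or lower at an adjusted p under 0.05, as were 0 of all 1592 miRNAs, the median was 0.023 and 6 members (8.82%) had every TGF-β array above every control array, beside 57 of all 1592 (3.58%) under the same setting. Without TGF-β replicate 2, 4 members were called higher (24 of all miRNAs), and without control replicate 1 or control replicate 2, 7 each (33 and 29 of all). Leaving out any single array gave a median of 0.20 to 0.31. Limma without the intensity trend called 2 members higher (17 of all miRNAs). Single members moved in both directions with the local background at an offset of 50. The log2 differences given further on were then 0.026 for miR-543, 0.080 for miR-485-3p, 0.085 for miR-496, 0.098 for miR-487a-3p, 0.20 for miR-376a-3p and -0.068 for miR-379-3p, and larger for miR-376c-3p (2.09), miR-376b-3p (1.30) and miR-495-3p (0.83). Without any background correction they were 0.38 for miR-543, 0.38 for miR-485-3p and 0.36 for miR-496.

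**Figure D1:**
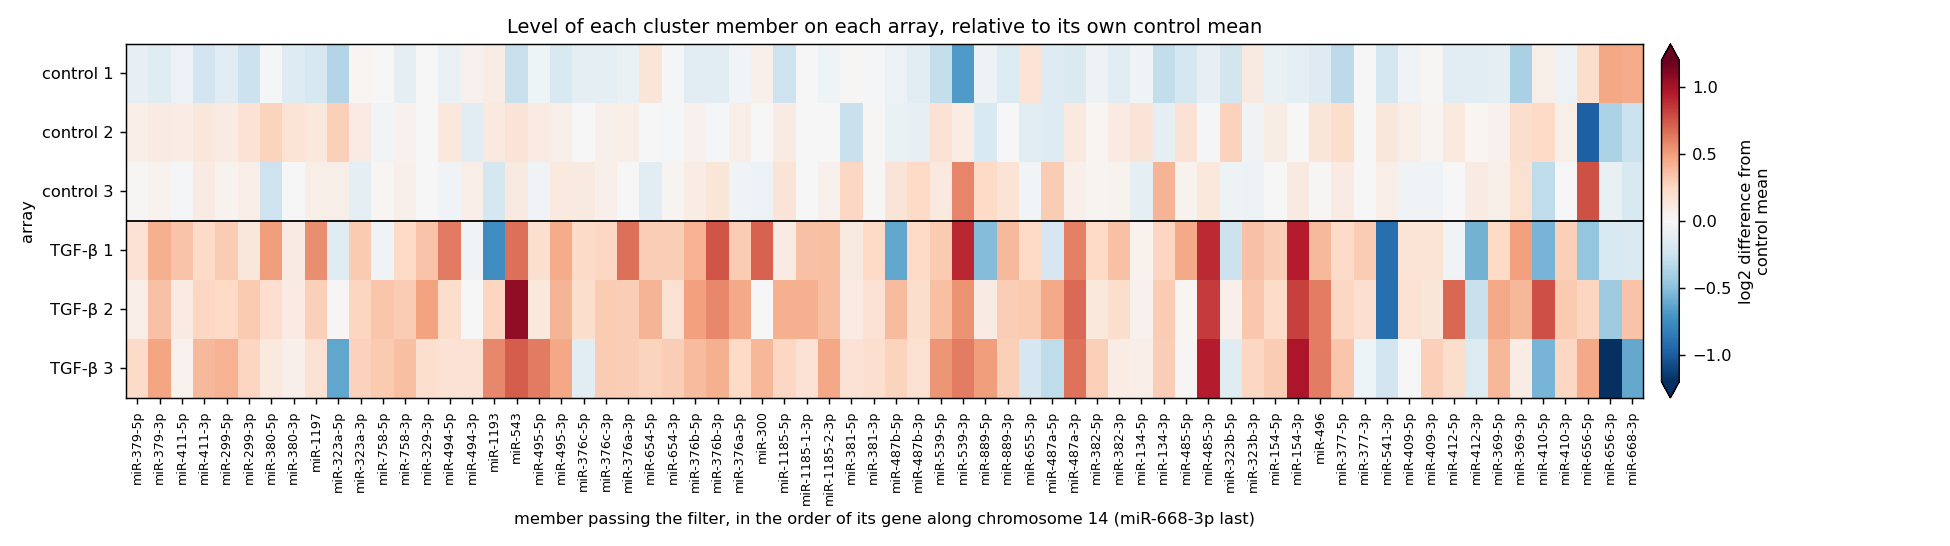
Each column is 1 of the 68 members that passed the filter, and each row is 1 array. Columns follow gene order along the chromosome, apart from miR-668-3p, which has no matched position. Colour gives the log2 difference from the mean of the 3 control arrays for that member (red higher, blue lower). On the TGF-β rows 53, 64 and 56 members are above their control mean, and the few dark blue cells belong to members near the detection limit.

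The shift could be seen on each TGF-β array. Taken relative to each member's own control mean, the median over the 68 members was -0.10, 0.07 and 0.04 on control arrays 1, 2 and 3 and 0.25, 0.29 and 0.26 on TGF-β arrays 1, 2 and 3. The TGF-β arrays thus lay close together and above all control arrays, and control array 1 was the lowest. The number of members above their own control mean was 15, 47 and 48 in the control group and 53, 64 and 56 after TGF-β. Over the 1282 miRNAs detected on all arrays the same median lay between -0.028 and 0.0060 on the 6 arrays.

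With the blank-spot background, quantile normalization and all arrays, the 5 largest log2 differences were those of miR-543 and of 4 other members. These 4 hold the bases UCAUACA at or next to the seed, and miR-543 is given further on. The ranking was different with the local background and in the deposited values. miR-154-3p gave 318, 341 and 367 units in the control group and 655.3, 602 and 667.6 after TGF-β. miR-485-3p gave 9.91, 10.4 and 11.6 units in the control group and 19.7, 19.05 and 20.4 after TGF-β. miR-487a-3p, the partner of miR-154-3p by seed, gave 48.6, 59.3 and 57.2 units and then 83.2, 87.8 and 86.1. In all 3 miRNAs the groups were far apart compared with the spread within them. The log2 differences were 0.91 (standard error 0.074) for miR-154-3p, 0.89 (0.12) for miR-485-3p and 0.64 (0.098) for miR-487a-3p, or 1.88-fold, 1.86-fold and 1.56-fold, and each had an adjusted p under 0.05 in limma. miR-539-3p, which has the seed of miR-485-3p, gave 4.50, 7.66 and 10.8 units in control cells and 13.5, 10.5 and 11.03 with TGF-β. Its log2 difference was 0.69 (standard error 0.26), but control array 3 reached above TGF-β array 2, so that its groups overlapped, and it was not called. The sequence UCAUACA was found in 5 of the 2253 mature miRNAs of the array that matched RefSeq (0.222%), in 4 of the 73 matched members and in miR-337-5p of the proximal 14q32 miRNAs. In miR-337-5p it starts at base 9, outside the seed, and the log2 difference was 0.12 with overlapping groups. This sequence was looked for after the values were seen. miR-487b-3p differs from miR-487a-3p by 3 edits and does not hold it, and its log2 difference was 0.21 (standard error 0.098, groups overlapping).

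In the miR-376 family, whose member miR-376c is known to target the TGF-β superfamily receptor ALK7, all 3 of the 3p arms were higher. miR-376b-3p gave 614, 667.6 and 744 units in the control group and 1135, 1004 and 904 after TGF-β. miR-376a-3p gave 903, 1004 and 953 units in control cells and 1501, 1169.6 and 1169.6 with TGF-β, and miR-376c-3p gave 1302, 1466 and 1465 units and then 1669, 1745 and 1745. Equal values on a pair of arrays arise because quantile normalization gives probes of the same rank the same value. The groups did not overlap in any of the 3, and TGF-β array 1 was the highest array of its group for miR-376a-3p and miR-376b-3p and the lowest for miR-376c-3p. The log2 differences were 0.58 (standard error 0.092), 0.42 (0.093) and 0.29 (0.062) for miR-376b-3p, miR-376a-3p and miR-376c-3p, each called in limma. The 5p arms of the same hairpins had log2 differences of 0.43 for miR-376b-5p, 0.33 for miR-376a-5p and 0.10 for miR-376c-5p, the last with overlapping groups, and none of the 3 was called.

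Among the other called members, miR-543 gave 10.7, 14.3 and 13.9 units in control cells and 20.4, 26.9 and 21.3 with TGF-β, a log2 difference of 0.82 (standard error 0.16). miR-495-3p, its close relative in sequence, gave 383, 458 and 471 units and then 592, 578 and 602, a log2 difference of 0.44 (0.081). miR-496 gave 28.6, 35.3 and 32.1 units and then 41.7, 48.7 and 48.7, a log2 difference of 0.54 (0.12). Control array 1 was the lowest of the 6 arrays for each of these miRNAs, and no control array reached the TGF-β arrays. miR-379-3p gave 79.0, 93.5 and 89.7 units in control cells and 117, 111 and 121 with TGF-β, a log2 difference of 0.42 (0.090). miR-369-5p, the only called member from a 5p arm, gave 113, 126.6 and 128 units and then 144.3, 168 and 161, a log2 difference of 0.37 (0.089). In both the groups lay apart by less than in miR-154-3p. miR-411-3p, which shares its seed with miR-379-3p, had a log2 difference of 0.29 with groups apart and was not called. The 11 calls were not equally stable over 21 alternative settings. miR-369-5p was called in 5 of them, miR-379-3p in 8, miR-376c-3p in 9, miR-376a-3p in 10 and miR-496 in 12. The other calls were made in 15 (miR-495-3p), 16 (miR-543), 17 (miR-376b-3p), 18 (miR-487a-3p) and 19 (miR-154-3p and miR-485-3p). These 21 settings leave out the alternative tests. Limma without the intensity trend and the t-test after adjustment called only 2 members each. Limma with a robust fit called 13 and the t-test before adjustment 28.

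**Figure D2:**
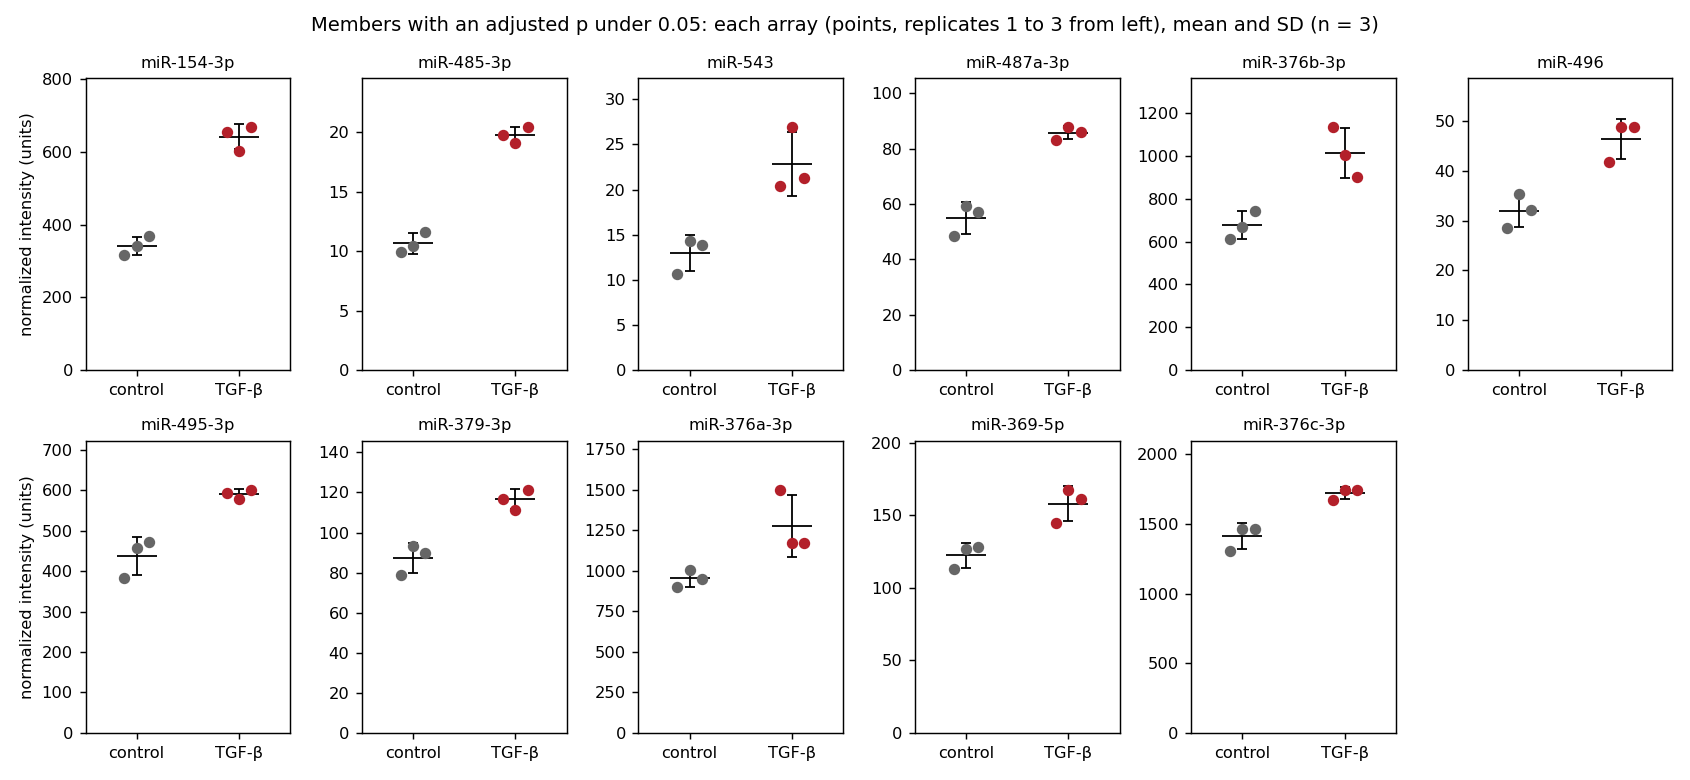
Each panel is 1 of the 11 members with an adjusted p under 0.05 in limma, and the vertical axis gives normalized intensity in units from 0. Points are arrays (replicates 1 to 3 from left), and bars are the mean and SD of 3 arrays. No panel has overlapping groups, and the log2 differences fall from 0.91 for miR-154-3p to 0.29 for miR-376c-3p.

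Not every member followed. miR-494-3p gave 655.3, 578 and 667 units in the control group and 614, 636 and 711 on the TGF-β arrays. The arrays of both groups were interleaved, and the log2 difference was 0.045 (standard error 0.078). It was 0.72 and 1.43 with the local background (offsets 50 and 0), 0.23 in the deposited values and -0.026 without TGF-β replicate 3. miR-134-5p, known for limiting dendritic spine growth in neurons, gave 69.4, 80.0 and 66.4 units and then 73.9, 74.4 and 76.0, with a log2 difference of 0.060 (0.095). It too had overlapping groups, with control array 2 the highest of all. Of the 8 members with a difference below 0, the groups were apart in miR-541-3p and miR-412-3p. miR-541-3p gave 1.62, 2.06 and 1.98 units in control cells and 1.00, 1.00 and 1.60 with TGF-β, where 1 is the floor set for the log2. It was detected on 3 control arrays and 1 TGF-β array, so it passed the filter mainly through the control group. Nothing is read from its groups lying apart. The size of its difference depends on the floor: -1.08 with a floor of 0.5 units and -0.014 with a floor of 2. miR-412-3p gave 3.26, 3.61 and 3.81 units and then 2.40, 2.95 and 3.17. Their log2 differences were -0.68 (standard error 0.42) and -0.33 (0.23), both less than 2 times their standard errors and not called. With the local background (offset 50) miR-541-3p was at -0.00083 and miR-412-3p at 0.014. Without background correction miR-541-3p was at -0.062 and miR-412-3p at -0.045. With an array left out, miR-412-3p lay between -0.42 (without TGF-β replicate 3) and -0.22 (without TGF-β replicate 1). miR-410-5p, just inside the filter, gave 1.54, 1.73 and 1.19 units in control cells and 1.00, 2.505 and 1.00 with TGF-β, with no clear order of the groups. miR-656-3p, with TGF-β array 3 at the floor, had a log2 difference of -0.72 (0.40), and its groups overlapped.

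The direction differed with the level of the signal. Of the 23 members that averaged under 10 units over the 6 arrays, 15 were above 0, with a median log2 difference of 0.083. All 26 members between 10 and 100 units were above 0, with a median of 0.32 and a range of 0.060 to 0.89. All 19 members above 100 units were above 0 too, with a median of 0.29 and a range of 0.045 to 0.91. Among all miRNAs that passed the filter, the share above 0 was 50% under 10 units, 43.3% between 10 and 100 units and 43.1% above 100 units. All 8 members with a difference below 0 were thus under 10 units, where the blank spots limit the precision. How much of this pattern comes from the signal level was not tested. With the local background, 47 of the 68 members were above 0. miR-379-3p, which averaged 102 units, was then at -0.068 (offset 50) and -0.088 (offset 0).

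**Figure D3:**
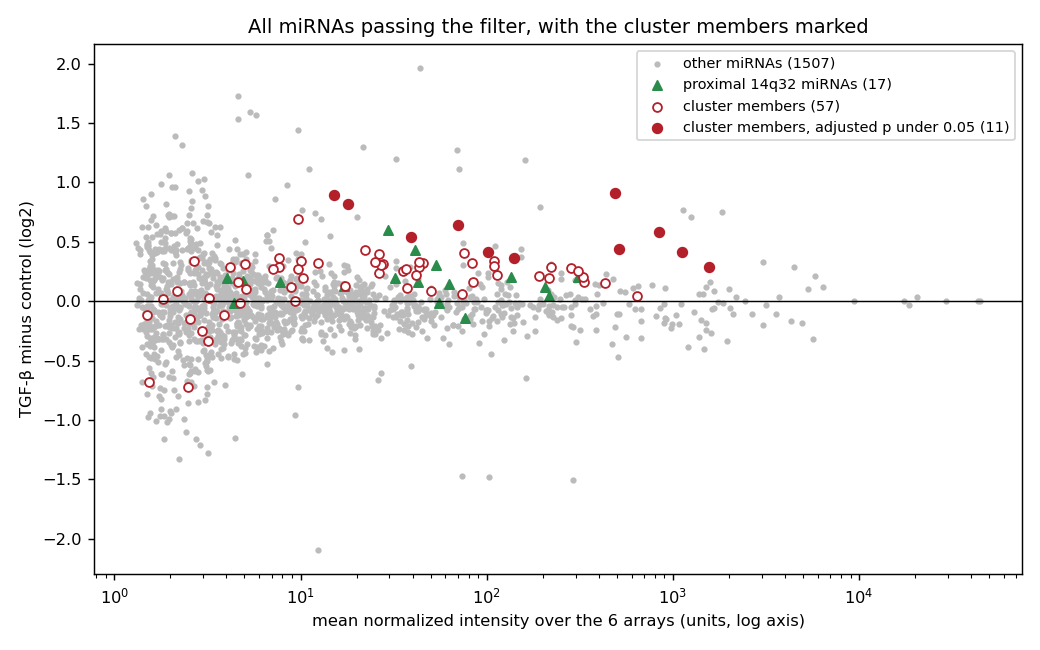
Each point is 1 of the 1592 miRNAs that passed the filter, with the mean normalized intensity over the 6 arrays on a log axis and the log2 difference of TGF-β minus control on the vertical axis. Red circles are the 68 cluster members, filled for the 11 with an adjusted p under 0.05, and green triangles are 17 proximal 14q32 miRNAs. Above 10 units all red circles lie above 0.

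Along the chromosome the differences were spread over the whole cluster. Each gene was put into 1 of 3 sections of 14 genes by position, and a member encoded by several genes was counted at the first. In the section from MIR379 to MIR376C, 21 of 22 members that passed the filter were above 0 and 4 were called, with a median log2 difference of 0.29. In the section from MIR376A2 to MIR487A, 20 of 21 were above 0 and 3 were called, with a median of 0.32. In the section from MIR382 to MIR656, 19 of 24 were above 0 and 4 were called, with a median of 0.22. Of the members in each section, 12, 12 and 10 had every TGF-β array above every control array. The rank correlation of gene order with log2 difference was -0.18 across 67 members and -0.028 across the 62 of them detected on all 6 arrays. Neighbouring hairpins and arms of 1 hairpin are not independent points. Over the arms matched in RefSeq, which leaves out miR-668-3p (-0.15), 40 of the 42 genes had at least 1 arm past the filter. In 33 of them every such arm was above 0, and in 7 at least 1 arm was below. At least 1 arm was called in 12 genes, of which MIR376A1 and MIR376A2 encode the same called miR-376a-3p. The called members lay at both ends of the cluster and in between, with MIR154 at 101059755 to 101059838, MIR485 at 101055419 to 101055491, MIR487A at 101052446 to 101052525, MIR376B at 101040436 to 101040535 and MIR543 at 101031987 to 101032064.

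**Figure D4:**
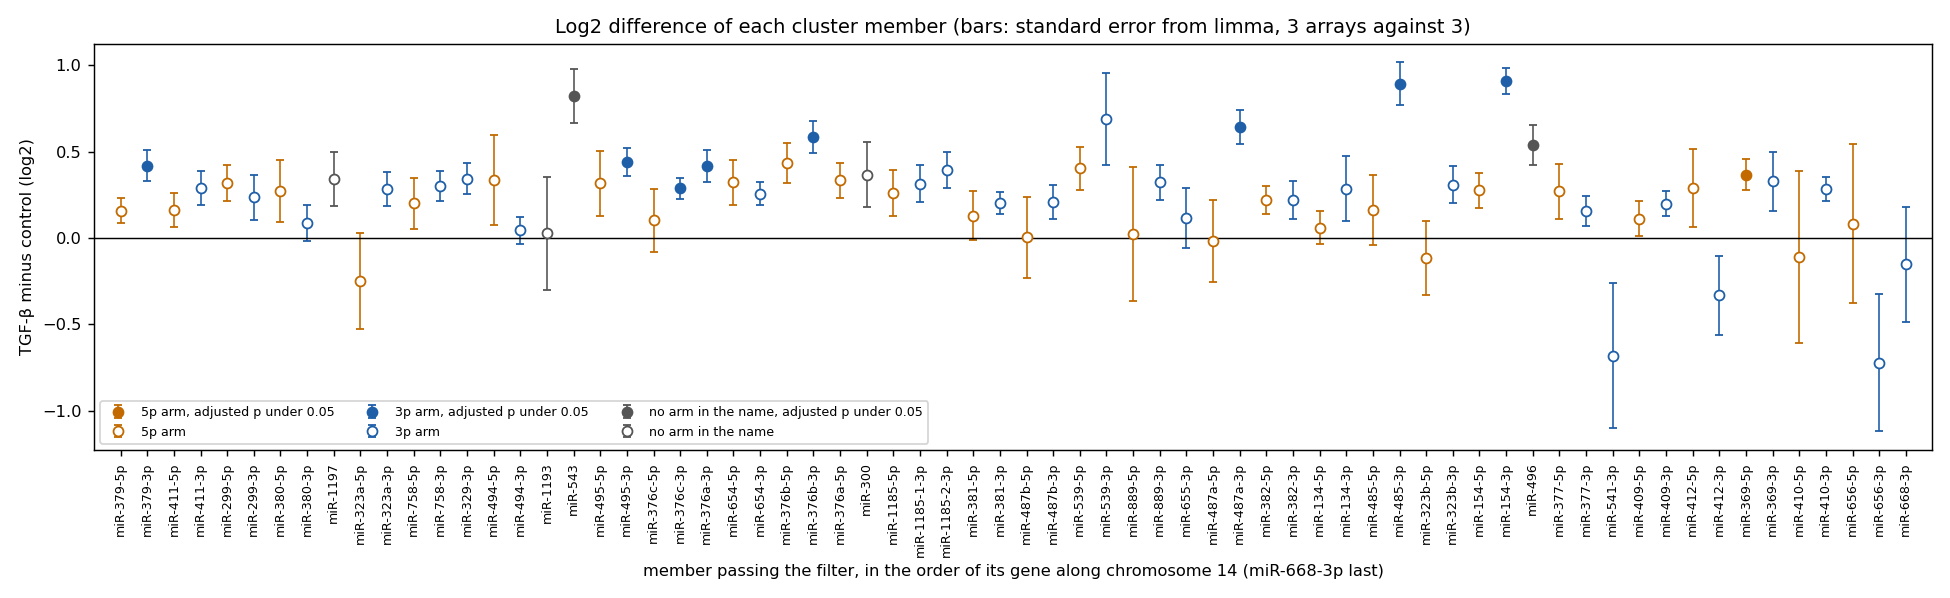
Points give the log2 difference of TGF-β minus control for the 68 members that passed the filter, and bars give the standard error from limma. The order is that of the genes along the chromosome, apart from miR-668-3p, which has no matched position. Filled points had an adjusted p under 0.05. The filled points are spread from miR-379-3p near one end to miR-369-5p near the other. Of the 11 filled points 8 are 3p arms, beside 34 of all 68 members shown.

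Of the 11 called members, 8 came from the 3p arm, 1 from the 5p arm, and miR-543 and miR-496 are named without an arm. The median log2 difference was 0.29 over the 34 members from a 3p arm that passed the filter and 0.20 over the 29 from a 5p arm. For 28 hairpins both arms passed. Both arms were above 0 in 22 of these, only the 3p arm in 4 and only the 5p arm in 2, and the 3p arm had the larger difference in 19. The 3p arm was also the brighter one on the control arrays in 21 of the 28. Members under 10 units had a median log2 difference of 0.083 and 0 calls. How much of the difference between the arms goes with signal level was not tested. The log2 differences of the 5p and 3p arms were 0.37 and 0.33 for miR-369, 0.22 and 0.22 for miR-382, 0.33 and 0.42 for miR-376a, 0.43 and 0.58 for miR-376b, and 0.32 and 0.23 for miR-299. For miR-409 they were 0.11 and 0.20, for miR-381 0.13 and 0.20, for miR-654 0.32 and 0.26, for miR-758 0.20 and 0.30, and for miR-411 0.16 and 0.29. The 5p and 3p arms were 0.28 and 0.91 for miR-154, 0.16 and 0.89 for miR-485, and -0.018 and 0.64 for miR-487a. They were 0.16 and 0.42 for miR-379, 0.10 and 0.29 for miR-376c, 0.40 and 0.69 for miR-539, 0.32 and 0.44 for miR-495, and 0.060 and 0.29 for miR-134. For miR-889 they were 0.023 and 0.32, for miR-487b 0.0051 and 0.21, for miR-323a -0.25 and 0.29, for miR-323b -0.12 and 0.31, and for miR-410 -0.11 and 0.28. The 5p arm had the larger difference also for miR-494, with 0.34 and 0.045, for miR-412, with 0.29 and -0.33, for miR-656, with 0.083 and -0.72, for miR-380, with 0.27 and 0.088, and for miR-377, with 0.27 and 0.15. Across the 28 hairpins the correlation between the arms was weak (Pearson r = 0.10, Spearman rho = 0.13), and it was no higher over the 25 with both arms detected on all 6 arrays (0.040 and 0.10). These correlations are over hairpins on the same 6 arrays, with larger errors for the dimmer arm in most hairpins. Whether the arms of a hairpin differ was not tested.

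**Figure D5:**
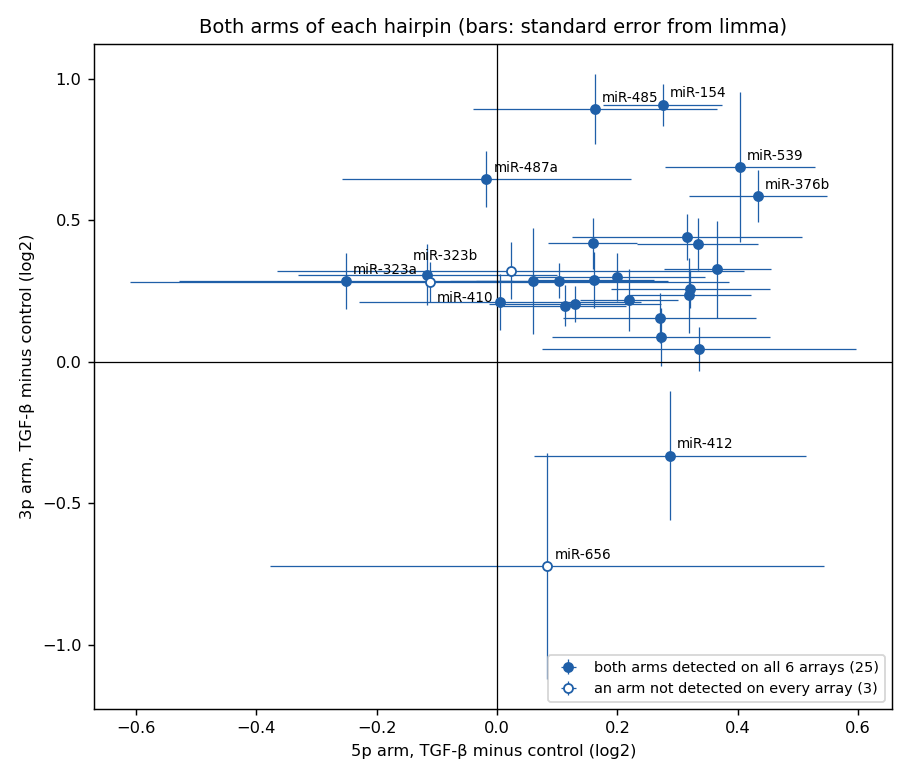
Each point is 1 of the 28 hairpins with both arms past the filter, with the log2 difference of the 5p arm on the horizontal axis and of the 3p arm on the vertical axis. Bars are standard errors from limma, and open points have an arm that was not detected on every array. The upper right quadrant holds 22 of the 28 points, and miR-154 and miR-485 lie highest.

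Members were poorer in G and C than the array as a whole, with a median GC content of 45.5% over the matched members that passed the filter. The median was 57.1% over the 1402 miRNAs past the filter that matched RefSeq. The 11 called members had a median of 38.1% and a range of 31.8% to 54.5%. Across the 62 matched members detected on all 6 arrays, the rank correlation of GC content with log2 difference was -0.46 (Pearson r -0.43). Among miRNAs with under 45% GC, the median log2 difference was 0.33 over 27 members and -0.017 over the 177 miRNAs outside the cluster, of which 44.6% were above 0. The members were chosen with these differences known, so this comparison is a description. Whether GC content bears on the differences was not tested.

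The proximal 14q32 miRNAs, which lie in the same imprinted region, and the cluster on chromosome 19, another large imprinted miRNA cluster, were set beside the distal cluster. Of 18 proximal miRNAs 17 passed the filter. Their median log2 difference was 0.17, 14 of the 17 were above 0, 2 (miR-127-3p and miR-337-3p) had every TGF-β array above every control array (miR-432-5p, whose spot on TGF-β array 1 was flagged, was not counted), and limma called 0 higher or lower, with 5 higher and 0 lower at an unadjusted p under 0.05 (103 and 92 of all 1592) and 1 higher and 0 lower by the methods' t-test (98 and 96 of all). On the arrays, the proximal median relative to its own control mean was 0.21, 0.15 and 0.14 on TGF-β arrays 1, 2 and 3 and between -0.061 and 0.051 on the control arrays, over the 16 detected on all of them. From the planned list for chromosome 19, which held 62 probes, the 10 probes for arms of miR-513 and miR-514 were left out after the values were seen. RefSeq places 8 of them on chromosome X, and the other 2, miR-513b-3p and miR-513c-3p, were left out with the 5p arms of the same names. Of the 52 probes kept 28 passed the filter, their median was -0.041, 12 of the 28 were above 0, and 2, miR-517c-3p and miR-519a-3p, were called higher. The sign of this median was not stable: it was -0.11 without control replicate 1, 0.062 without control replicate 3 and 0.018 without control replicate 2, and slightly above 0 also without TGF-β replicate 2, with median scaling, with a floor of 2 units, in the deposited values and without background correction. With the local background the proximal median was -0.0098 (offset 50) and -0.027 (offset 0). Both lists were selected with earlier results known, and the difference between the lists was not tested. Of the 36 miRNAs that limma called higher on the whole array, 11 (30.6%) were members of the distal cluster. That is 16.2% of its 68 members past the filter, beside 2.26% of all 1592 miRNAs. Because the cluster was picked from these same values, nothing is read from either share.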

How the data were processed

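The median intensity of every spot and its surroundings, unnormalized and linear, is what the authors deposited, next to a table of processed values. That table could be rebuilt as signal minus blank mean, scaled so that detected miRNAs had a median of 25 (column medians of 25 on all 6 arrays), to within 0.500 units. It is on a linear scale and not centred. A 5% trimmed mean of the 320 blank spots was taken off, the 2565 miRNA probes were quantile normalized, a floor of 1 unit was set and log2 taken. The blank spots were used because the local background was a large part of the signal on bright spots. On spots with a raw signal above 200 its median ratio to the signal was 0.434 to 0.990. On the raw scanner scale, before the blank mean was taken off, blank means were 18.2 to 21.3, blank SDs 0.528 to 0.768 and detection limits 19.5 to 22.8. Differences of group means of log2 values were fitted in limma (lmFit, then eBayes with trend), version 3.58.1 and R 4.3.3, over the 1592 miRNAs past the filter, with Benjamini-Hochberg adjustment. Sequences and positions were joined by miRNA name in Python 3.11.15, and figures were drawn with matplotlib 3.10.9. Between arrays, log2 values of members detected on all 6 correlated at 0.989 to 0.997.

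Named members were the 5 of highest mean level, the called ones, the 5 largest differences in each direction with groups apart, arm pairs, and the 2 on either side of the filter. Arm pairs are given by their log2 differences and not by every array. The members and lists were chosen with earlier results of these data known. Alternatives were other backgrounds, scalings, floors and filters, the deposited values, limma without trend or robust, the methods' t-test, a replicate block and each array left out in turn.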

Additional observations from a re-analysis of the deposited data

How the results depend on the processing

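The median log2 difference of the members stayed above 0 under each alternative. It was 0.023 and 0.065 with the local background (normexp offsets 50 and 0), 0.15 without background correction and 0.43 in the deposited values, where the median of all miRNAs was 0.11 and the members lay 0.32 above it. Without 1 array it was 0.20 (control replicate 1) to 0.31. Members called higher were 11, with the count over all miRNAs in brackets (36). There were 0 (0) with either local background, 5 (26) without normalization, 6 (29) with a floor of 2 units, 3 (14) without a filter, 2 (17) in limma without the intensity trend, 28 (98) and 2 (11) by the methods' t-test before and after adjustment, and 4 (24, without TGF-β replicate 2) to 11 (36) with an array left out. Other settings gave 8 to 13 (34 to 41). No setting called a member lower in limma, where at most 1 was lower at an unadjusted p under 0.05, nor did the methods' t-test. Members with every TGF-β array above every control array were 34 (7.98% of all miRNAs, further counts over all in brackets). There were 6 (57) with either local background, 11 (88) without normalization and 34 to 42 (185 to 211) with an array left out. Those below were 2 (148), and there were 1 (56) with either local background, 0 (103) with median scaling, 0 (88) without normalization, 1 (137) with a floor of 2 units, 0 (15) in the deposited values, 1 (130) with detection on all 6 arrays, 1 (133) at 3 blank SDs and 2 to 4 (209 to 253) with an array left out. Members above 0 were 47 to 62 and members detected 63 to 72. Causes were not tested. miR-379-3p was at -0.068 and -0.088 with the local background (offsets 50 and 0), and the other 10 called members stayed above 0 under each alternative but moved with this background. At offset 0, miR-543 was at 0.068, miR-485-3p at 0.22, miR-496 at 0.21, miR-487a-3p at 0.24, miR-154-3p at 1.47, miR-376b-3p at 1.62, miR-495-3p at 1.59, miR-376c-3p at 3.50 and miR-412-3p at 0.043. In the deposited values miR-376c-3p was at 0.44, miR-376a-3p at 0.63 and miR-495-3p at 0.68. Near the floor, miR-541-3p lay between -1.08 and -0.00083 and miR-410-5p between -0.23 and 0.11. The chromosome 19 list with miR-513 and miR-514 had the same median, -0.041; the shorter list was chosen after the values were seen. With the replicate block, 10 members were called higher. Same-numbered arrays correlated at 0.13, 0.11 and -0.027 after the group means were taken off, so the numbers were not used as pairs. The block leaves group ranges as they are. Signals near the blank spots limit the precision of members under 10 units.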
